A study of Homo sapiens with 12 samples.

Results

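EGR1, EGR2, EGR3, IER2, IER3, IER5, NR4A1, SRF, CCN1 and CCN2 are 10 of the 19580 genes in a table of ribosome footprints from HAP1 cells. HAP1 is a human line with a near-haploid genome that descends from KBM-7, a chronic myeloid leukaemia line. The 10 genes were chosen by Ensembl identifier as a group of serum-response early genes, and the choice was made with earlier results of the same table in view. Which footprint densities guided the choice was not recorded, so all comparisons below are treated as having been used. The members' values are therefore a description, with standard errors and intervals but no printed p-value. Where a member is called or passes the threshold, its adjusted p was under 0.05. Such calls are part of the description and not a test. Each Ensembl identifier matched 1 row of the table.

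In ribosome profiling, lysates are digested with RNase I and the mRNA fragments that ribosomes protect are sequenced, so a gene's footprint density follows its mRNA amount and the ribosome load of that mRNA together. All 4 groups were wild-type HAP1 cells with 3 biological replicates each. One group was left untreated. Another was cultured for 18 h in 5 uM of 4-thiouridine (4SU), another got a UVA dose of 6 kJ/m2 and was harvested after a recovery of 30 min, and the last got the 4SU culture followed by that UVA dose and recovery. 4SU is a uridine analogue that is built into newly made RNA and, once excited by UVA, bonds covalently to nearby protein. The 12 libraries held 1899854 to 5832366 reads, with the lowest total in 4SU+UVA replicate 2. Density is given as RPKM, reads per kilobase of transcript scaled to the total reads of the library. The length is that of the whole transcript and not of its coding part, so levels of different genes are not comparable as ribosome density. More mRNA, more ribosomes on each mRNA and a change in only some of the cells cannot be told apart in these values. RPKM is also a share of the library's reads, so a change in the total footprints of a cell cannot be seen in it. The groups without UVA are listed with no recovery time, so UVA and the recovery after it cannot be told apart either. The table gave no symbols, so the identity of the cells was not checked against marker genes here.

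Early genes are switched on within minutes of a signal without needing new protein. Growth factors and many stresses act through the MAP kinases ERK, p38 and JNK on transcription factors that already sit at the promoters. One of these is SRF, the serum response factor, which binds the CArG box and works with ternary complex factors such as ELK1, phosphorylated by MAP kinases, or with myocardin-related factors, which answer to actin. EGR and NR4A genes encode further transcription factors, IER genes encode small regulatory proteins, and CCN genes encode secreted matrix proteins. Most of their mRNAs are short-lived, which keeps the response brief.

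Footprints on EGR1 lay 77.2-fold higher in cells given 4SU and UVA than in untreated cells (ratio of mean RPKM), and neither agent alone came near that. IER2 and CCN1 also exceeded the sum of the single changes, at a smaller size, 5.74-fold and 2.84-fold with the combination. IER5 and CCN2 were higher after UVA to a similar extent with and without 4SU, although for CCN2 the difference without 4SU did not pass the threshold. IER3 lay between these patterns. With the combination NR4A1 stood at 1.88-fold and SRF at 1.28-fold of the untreated level. EGR2 and EGR3 were barely detected, and their highest levels were also in the cells that received both. In the plot of density by library, the 3 libraries with both agents stood above the other 9 for EGR1, EGR2, EGR3, IER2, IER3 and CCN1, and overlapped at least 1 other group for IER5, NR4A1, SRF and CCN2.

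**Figure D1:**
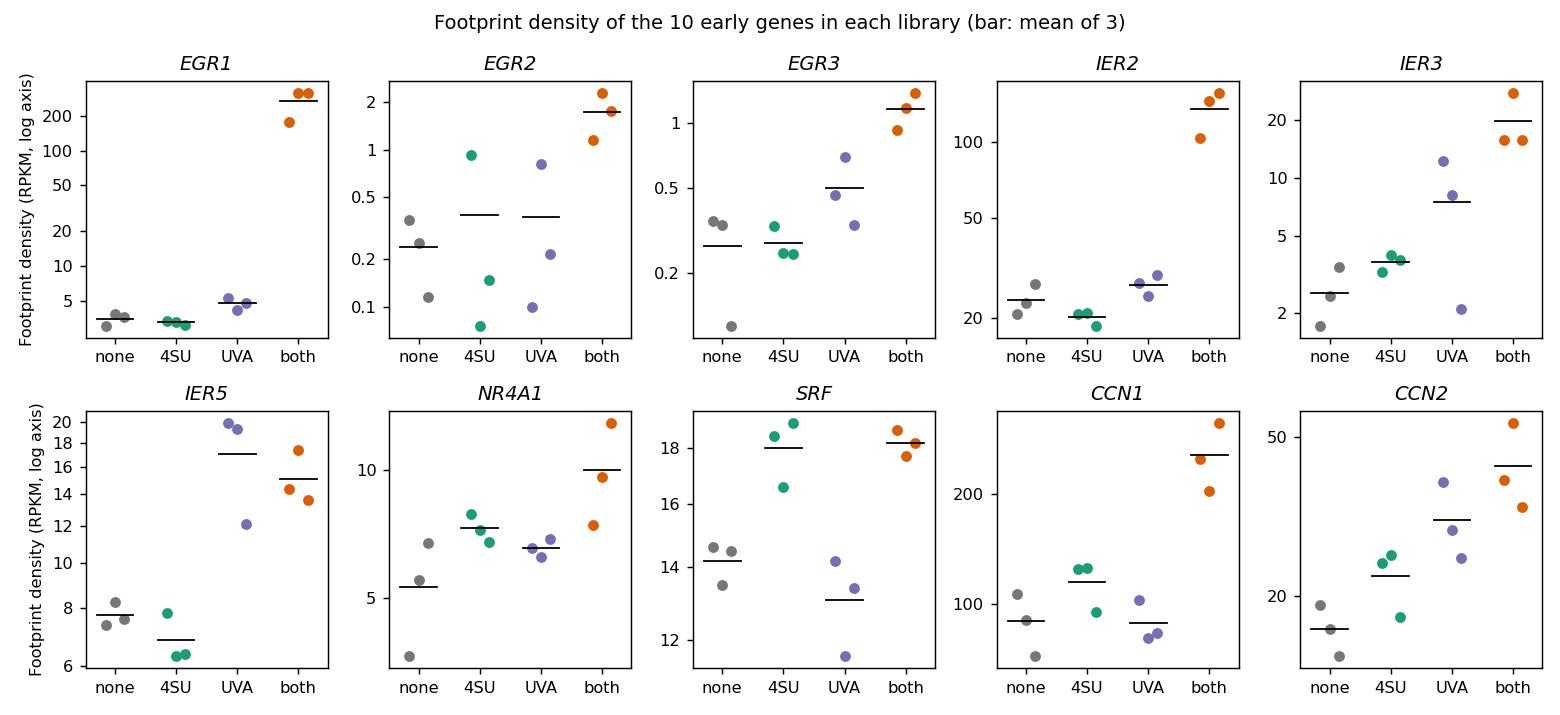
Footprint density (RPKM, log axis with its own range in each panel) of the 10 genes in untreated cells and cells given 4SU, UVA or both. Each point is 1 library and each bar the mean of 3. For EGR1 the libraries with both agents lie at 179 to 318 RPKM and all others at or below 5.32 RPKM.

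Promoter windows are shown for EGR1, EGR2 and SRF because they hold CArG boxes, the element that SRF binds, and for CCN2 because it holds repeated matches to the TEAD site. RefSeq windows of 300 bases, from 250 before to 50 after an annotated start (GRCh38.p14), were at hand for 7 of the 10 genes, EGR1, EGR2, IER2, IER5, NR4A1, SRF and CCN2, some with several starts and 11 windows in all. The EGR1 window is chr5:138465229-138465528 on the plus strand, the EGR2 window, that of the innermost of its 3 starts, is chr10:62816317-62816616 on the minus strand, and the SRF window, the upstream of its 2, is chr6:43171019-43171318 on the plus strand. In these, capitals mark CArG boxes. The CCN2 window is chr6:131951323-131951622 on the minus strand, and capitals there mark GGAATG, the core of the site of TEAD factors, the partners of YAP.
EGR1: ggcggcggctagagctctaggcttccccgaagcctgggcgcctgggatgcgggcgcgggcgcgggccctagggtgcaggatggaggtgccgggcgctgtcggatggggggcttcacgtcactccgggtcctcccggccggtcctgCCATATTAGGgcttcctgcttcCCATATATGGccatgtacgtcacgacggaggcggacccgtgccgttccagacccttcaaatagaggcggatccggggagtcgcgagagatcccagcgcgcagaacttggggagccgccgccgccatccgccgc
EGR2: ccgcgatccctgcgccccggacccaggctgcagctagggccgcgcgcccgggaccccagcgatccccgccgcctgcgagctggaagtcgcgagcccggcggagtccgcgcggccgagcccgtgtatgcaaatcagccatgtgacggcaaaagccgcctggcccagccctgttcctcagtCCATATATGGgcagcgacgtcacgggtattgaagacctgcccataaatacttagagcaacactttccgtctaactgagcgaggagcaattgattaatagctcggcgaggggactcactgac
SRF: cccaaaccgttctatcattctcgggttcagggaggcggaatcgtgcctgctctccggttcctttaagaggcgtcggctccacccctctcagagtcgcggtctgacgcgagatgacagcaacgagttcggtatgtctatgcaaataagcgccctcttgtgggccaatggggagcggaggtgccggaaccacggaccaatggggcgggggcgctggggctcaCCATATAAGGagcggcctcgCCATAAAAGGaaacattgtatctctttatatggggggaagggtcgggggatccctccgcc
CCN2: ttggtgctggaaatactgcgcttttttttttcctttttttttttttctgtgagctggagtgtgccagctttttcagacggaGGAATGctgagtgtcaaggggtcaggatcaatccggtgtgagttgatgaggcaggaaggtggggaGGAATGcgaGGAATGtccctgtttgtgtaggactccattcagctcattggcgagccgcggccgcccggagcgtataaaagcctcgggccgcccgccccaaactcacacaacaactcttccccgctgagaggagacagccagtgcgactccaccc

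Both strands were searched for the CArG box and for the TATA box, TATAAA. They were also searched for TGACG and the longer TGACGTCA that contains it, which are sites of CREB and ATF factors, for GCGNGGGCG of the EGR factors and for GGGCGG of SP1, which can overlap it. The last were the AP-1 site TGANTCA and, for TEAD factors, GGAATG. The EGR1 window held 2 CArG boxes, starting 105 and 83 bases before the start, the SRF window 2, at 30 and 10 bases, and the EGR2 window 1, at 71 bases. Over all 35116 windows of this length, 1.29% held a CArG box. No CArG box was spelled in the windows of IER2, IER5, NR4A1 and CCN2, in the other 2 windows of EGR2 or in the other SRF window, which says only that these letters are not there. The CCN2 window held GGAATG 3 times, at 169, 104 and 95 bases before the start, and 14% of all windows held it at least once. The share of windows with repeated matches was not counted for any motif. TGACG stood 2 times in the EGR1 window, at 135 and 66 bases, and 2 times in the EGR2 window shown, at 110 and 54 bases. It stood once in the IER2 window, at 140 bases, and once in the SRF window, at 149 bases, and was in 24.6% of all windows. GCGNGGGCG stood at 198 bases in the EGR1 window and at 49 in the SRF window, once in the middle EGR2 window, and in 9.43% of all windows. TATAAA stood at 32 bases in the CCN2 window, once past the start in the SRF window, and in 11.5% of all windows. GGGCGG, found in 45% of all windows, was in 1 or more windows of EGR2, IER2, NR4A1, SRF and CCN2. GGAATG also stood 2 times in the outermost EGR2 window. None of the 11 windows held TGACGTCA or TGANTCA, which 1.85% and 7.71% of all windows held. These matches describe the letters and are not evidence of binding.

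The SRF gene (chr6:43171269-43181506, transcript of 4231 nt) encodes the factor itself. Its density was 14.6, 13.5 and 14.5 RPKM in untreated replicates 1, 2 and 3, 18.5, 16.6 and 19 after 4SU, 14.2, 11.6 and 13.4 after UVA, and 18.7, 17.7 and 18.2 after both. The groups with 4SU lay above the groups without it and did not overlap them, while UVA made no such division. On the log2(RPKM + 0.5) scale the difference from untreated was 0.33 (SE 0.09) with 4SU and 0.35 (SE 0.09) with 4SU+UVA, and 4SU+UVA differed from 4SU by 0.02 (95% interval -0.19 to 0.22). The median of all tested genes moved too, by 0.09 with 4SU and 0.23 with 4SU+UVA. Centring each library on its median left SRF at 0.21 and 0.18, neither of which passed the threshold. The 4SU difference also missed it under quantile normalisation (0.23) and without untreated replicate 1 (0.35), 2 (0.30) or 3 (0.35) or 4SU replicate 1 (0.31) or 3 (0.30).

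EGR1, ENSG00000120738, is a zinc-finger transcription factor that couples growth and stress signals to later genes. It had the largest increase of all 11510 genes tested in each comparison of 4SU+UVA with another group. The gene lies at chr5:138465479-138469303 and its transcript is 3137 nt long. Untreated replicates 1 to 3 held 3.03, 3.87 and 3.66 RPKM, from 36, 64 and 67 reads. Cells given 4SU held 3.35, 3.3 and 3.11 RPKM, and irradiated cells 5.32, 4.17 and 4.84 RPKM. The 3 UVA libraries were all above the untreated ones by a small margin, and 4SU and untreated libraries overlapped.

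With 4SU+UVA, EGR1 reached 179, 318 and 318 RPKM, from 3095, 1895 and 3041 reads. Replicate 1 stood apart from the other two, and all 3 were far above every other library. Mean density was 272 ± 80.6 RPKM after the combination, 4.77 ± 0.575 after UVA, 3.25 ± 0.129 after 4SU and 3.52 ± 0.435 in untreated cells (SD, n = 3 each). If the changes by 4SU and by UVA had simply added up, the combination would have stood at 4.51 RPKM. The log2 difference from untreated cells was -0.09 (SE 0.18) with 4SU, 0.39 (SE 0.18) with UVA and 6.04 (SE 0.18) with both. Beyond the sum of the single log2 differences, the combination gave another 5.74 (SE 0.26).

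EGR1 also took a larger part of the footprints on the group. That part was 1.96% to 3.32% of the 10 genes' reads in the 9 libraries without the combination and 34.5%, 47.2% and 43.1% with it. The 10 genes together took 0.0416 ± 0.00327% of all reads in untreated cells, 0.0505 ± 0.00644% after UVA, 0.05 ± 0.0053% after 4SU and 0.202 ± 0.0357% after the combination (SD, n = 3 each). Without EGR1 the other 9 took 0.0405 ± 0.00337% in untreated cells and 0.117 ± 0.0135% with both (SD, n = 3 each).

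**Figure D2:**
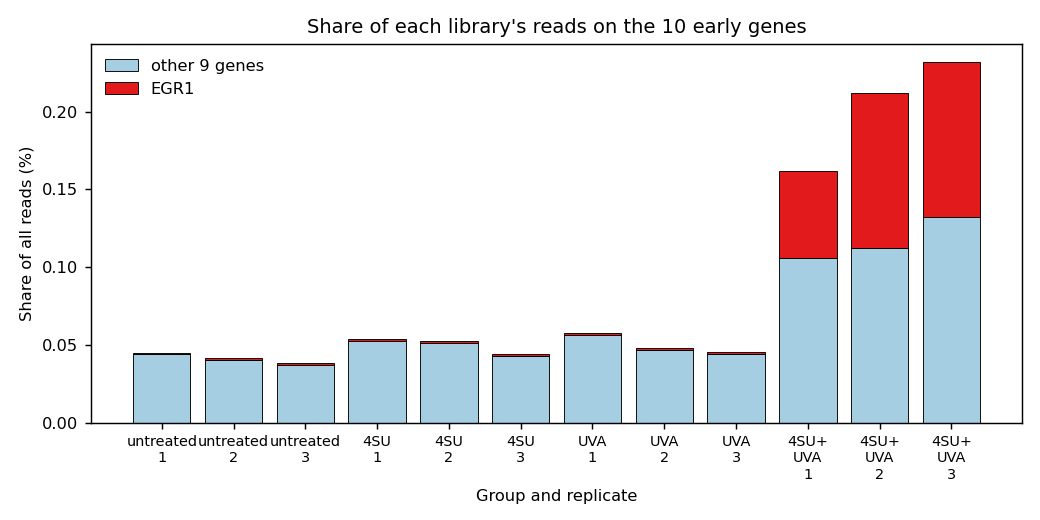
Share of all reads of a library (percent) on EGR1 and on the other 9 genes, in the 12 libraries by group and replicate. The 3 libraries with 4SU+UVA reach 0.162% to 0.232%, and the other 9 lie at or below 0.0578%.

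EGR2, ENSG00000122877, a paralog known for its part in myelination, rested on few reads. Its gene spans chr10:62811996-62819167 and its transcript 2979 nt. Untreated libraries gave 4, 4 and 2 reads, 4SU libraries 11, 1 and 2, UVA libraries 1, 13 and 3, and 4SU+UVA libraries 19, 13 and 16. The densities with both agents, 1.15, 2.3 and 1.76 RPKM, were above all others, which ran from 0.0754 to 0.925 RPKM with wide scatter inside the 4SU and UVA groups. Per library read, the summed 48 reads against 10 made a ratio of 6.83 (exact 95% interval 3.41 to 15.1). Intervals on summed reads reflect counting error and leave out the spread between libraries. PCR copies were not told apart by molecular identifiers, so the counting error itself may be larger. The fitted log2 difference of 1.57 (SE 0.38) was 2.45 with a pseudocount of 0.1, because the added constant weighs heavily at these levels.

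EGR3, the third zinc-finger paralog, was at a similarly low level. It lies at 22687659 to 22693480 of chromosome 8, with a transcript of 4514 nt. Reads numbered 6, 8 and 3 in untreated cells, 6, 5 and 5 after 4SU, 7, 17 and 7 after UVA, and 23, 10 and 19 after both. In RPKM these were 0.114 to 0.351, 0.245 to 0.333, 0.336 to 0.694 and 0.922 to 1.38, so the group with both agents overlapped none and the UVA group lay just above the 4SU group. Summed reads per library read were 4.35 times the untreated level with both agents (exact 95% interval 2.48 to 8.03), 2.03 times with UVA (1.09 to 3.91) and 1.08 times with 4SU (0.512 to 2.28). EGR3 did not reach the minimum of 1 RPKM in 3 libraries and is not among the 9 tested members. Fitted with no such minimum, over 15937 genes, it was higher after both agents by 1.12 (SE 0.17) against untreated cells. Against 4SU the combination was higher by 1.09 (SE 0.17) and against UVA by 0.74 (SE 0.17), and all 3 were called. UVA alone against untreated cells gave 0.38 (SE 0.17) and was not called. The setting without this minimum gave 10 called members against untreated cells. The share of all genes called in it is not given here, so nothing is read from this count. EGR2 met this minimum only through the 3 libraries with both agents, where it was high.

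NR4A1, ENSG00000123358, encodes the orphan nuclear receptor Nur77, another early transcription factor (chr12:52022832-52059503, transcript of 2678 nt). It held 3.65, 5.52 and 6.72 RPKM in untreated cells, 7.86, 7.22 and 6.78 after 4SU, 6.56, 6.26 and 6.88 after UVA, and 7.43, 9.63 and 12.9 after both. All libraries with both agents lay above every untreated and every UVA library, and they overlapped those with 4SU. The 4SU libraries also lay above the untreated ones, by a small margin, and the UVA libraries overlapped both. The untreated and combined groups were the most scattered. The log2 difference was 0.86 (SE 0.20) with both agents against untreated cells, 0.46 (SE 0.20) with 4SU and 0.32 (SE 0.20) with UVA. For both agents it was 0.69 under median centring and 0.63 under quantile normalisation. The combination went beyond the sum of the single differences by 0.08, with a 95% interval of -0.52 to 0.67. Against UVA, the combined group was higher by 0.54 (SE 0.20), a difference that fell short of the threshold with no filter on low values, under median centring (0.45) and quantile normalisation (0.39), without any 1 UVA library (0.51 to 0.57), and without 4SU+UVA replicate 2 (0.54) or 3 (0.34). Against 4SU, 0.40 (SE 0.20), it passed only without 4SU+UVA replicate 1 (0.58).

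IER2, ENSG00000160888, a small nuclear protein of the early response (chr19:13150411-13154911, transcript of 2110 nt), followed EGR1 in form. Densities were 20.8, 22.9 and 27.2 RPKM untreated, 20.8, 21 and 18.6 after 4SU, 27.5, 24.4 and 29.6 after UVA, and 104, 146 and 157 after both. Replicate 1 was again the lowest of the combined libraries, and the other groups overlapped their neighbours. The mean with both agents, 136 ± 28.2 RPKM (SD, n = 3), compared with 23.6 RPKM if the single changes had added up. The log2 differences were -0.22 (SE 0.14) with 4SU, 0.20 (SE 0.14) with UVA and 2.48 (SE 0.14) with both, and the part beyond their sum was 2.50 (SE 0.20).

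IER3, a stress-inducible regulator of cell survival (chr6:30743199-30744547, transcript of 1237 nt), was scattered among irradiated cells. It stood at 1.71, 2.45 and 3.47 RPKM untreated and at 3.24, 4 and 3.76 with 4SU. UVA gave 12.3, 8.19 and 2.1 RPKM, from 51, 55 and 12 reads, so that replicates 1 and 2 were above every non-irradiated library and replicate 3 was among them. With both agents the values were 15.7, 27.7 and 15.7 RPKM, above all others. The log2 difference from untreated cells was 1.16 (SE 0.42) with UVA, or 1.83 without UVA replicate 3, which then passed, and 2.72 (SE 0.42) with both. The part beyond the sum was 1.07 (95% interval -0.21 to 2.34), and 0.39 without UVA replicate 3.

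IER5, ENSG00000162783, which binds PP2A and the heat shock factor HSF1 (chr1:181088700-181092900, transcript of 4201 nt), had a higher density in both irradiated groups. Its values were 7.36, 8.25 and 7.59 RPKM untreated, 7.81, 6.31 and 6.38 after 4SU, 19.9, 19.3 and 12.1 after UVA, and 14.4, 17.4 and 13.6 after both. The irradiated groups overlapped each other and lay above both groups kept from UVA. UVA made a log2 difference of 1.06 (SE 0.16) without 4SU and of 1.09 (SE 0.16) with it, so the difference between these was 0.03, with a 95% interval of -0.47 to 0.52. The combined group differed from UVA alone by -0.14 (SE 0.16), or by -0.37 without UVA replicate 3, which then passed as lower. A GAANNTTC match, the form of a heat shock element, begins 226 bases before the IER5 start. This motif was searched after the sequences had been seen, and 6.77% of all windows hold it.

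CCN1, ENSG00000142871, also known as CYR61, is a secreted matrix protein and a target of both SRF and YAP (chr1:85580761-85583950, transcript of 2278 nt). It had the highest RPKM of the members in untreated cells, at 107, 90.6 and 72.3. It stood at 125, 126 and 95.3 RPKM after 4SU, 103, 81 and 83.4 after UVA, and 249, 203 and 312 after both. The combined libraries were above all others, which overlapped one another. The log2 difference was 0.37 (SE 0.16) with 4SU, 0.00 with UVA (95% interval -0.35 to 0.34) and 1.49 (SE 0.16) with both, and the part beyond the sum was 1.13 (SE 0.23). The mean of 255 ± 54.7 RPKM (SD, n = 3) compared with 115 RPKM for added single changes.

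CCN2, also known as CTGF, is the related secreted protein of fibrosis and wound repair (chr6:131948176-131951372, transcript of 2338 nt). Densities were 19, 16.5 and 14.1 RPKM untreated, 24.1, 25.3 and 17.7 after 4SU, 38.7, 29.2 and 24.9 after UVA, and 39.1, 54.3 and 33.4 after both. The irradiated groups overlapped each other and both lay above the untreated group, and 4SU overlapped untreated and UVA libraries. UVA made a log2 difference of 0.87 (SE 0.19) without 4SU and 0.89 (SE 0.19) with it, 0.02 apart (95% interval -0.55 to 0.59). The difference without 4SU just missed the threshold and passed without UVA replicate 3 (1.01), and also, at an estimate that stayed at 0.87, without 4SU replicate 3 or 4SU+UVA replicate 2 or 3, which enter only the shared spread. Against UVA alone the combined group was higher by 0.44 (SE 0.19), which passed only without UVA replicate 1 (0.61), 4SU+UVA replicate 3 (0.59) or 4SU replicate 3 (0.44), or with a replicate block (0.44).

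**Figure D3:**
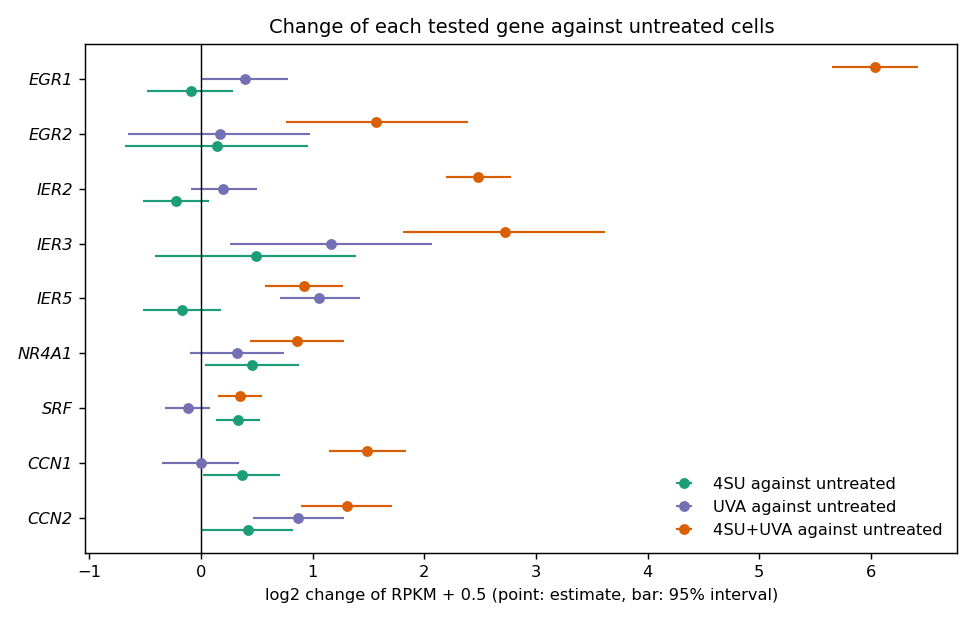
Log2 change of RPKM + 0.5 against untreated cells for the 9 tested genes after 4SU, UVA or both, with points for the fitted estimates and bars for 95% intervals (limma, 3 libraries a group). EGR1 with both agents stands at 6.04, beyond the next highest, IER3 at 2.72, and for IER5 the points for UVA and for both lie at 1.06 and 0.92.

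Fitted across all genes with limma (12 libraries, adjusted p under 0.05), the calls of the members stood as follows beside those of all 11510 genes tested. Nothing is read from these counts, since the members were chosen with the results in view. The comparisons are not independent, because those against untreated cells share the untreated libraries and those of the combination share its libraries. For 4SU+UVA against untreated cells, 9 of the 9 tested members were called higher and 0 lower, where 40.6% of all genes were called higher and 18.4% lower. With 4SU alone, 1 member, SRF, was called higher and 0 lower, against 11.3% and 3.12% of all genes. With UVA alone, 1 member, IER5, was called higher and 0 lower, against 0.278% and 0.374%.

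For 4SU+UVA against 4SU, 7 members were called higher (all but NR4A1 and SRF) and 0 lower, against 25% and 19% of all genes. This comparison sets UVA with its recovery against no UVA, in cells with 4SU. For 4SU+UVA against UVA, which isolates 4SU in irradiated cells, 7 were called higher (all but IER5 and CCN2) and 0 lower, against 34.7% and 19.8%. The call of NR4A1 there was lost in 8 of 21 other settings. EGR2 is in the counts of 9 and 7, and it met the minimum level only through the libraries with both agents. The interaction, by which the combination went beyond the sum of both agents on the log2 scale, was called higher for 3 members, EGR1, IER2 and CCN1, and lower for 0, against 10.7% and 14.1% of all genes. EGR2, with an interaction of 1.27 (SE 0.54), was called without 4SU replicate 1 (1.67) or UVA replicate 2 (1.60), the libraries in which its reads were highest for their group.

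The plot of the UVA change with and without 4SU sets these side by side, and the groups on its axes share no library. IER5, CCN2, NR4A1 and SRF lay near the line of equal change, with 95% intervals of the interaction that spanned 0. For SRF the part beyond the sum was 0.13, with a 95% interval of -0.15 to 0.42. EGR1, IER2 and CCN1 lay far above it, IER3 and EGR2 above it with wide errors. A value that misses the threshold does not show that UVA acted alike with and without 4SU.

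**Figure D4:**
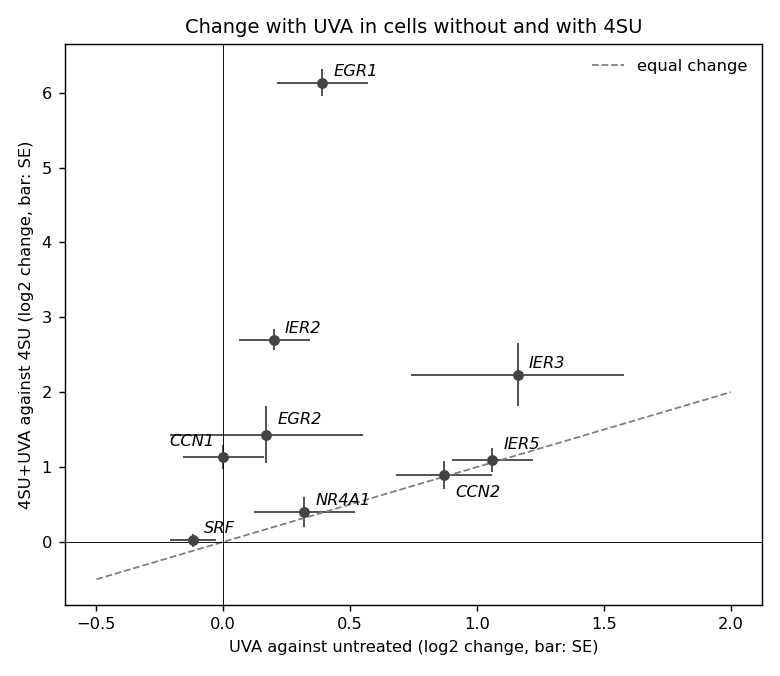
Log2 change with UVA in cells without 4SU (horizontal axis, UVA against untreated) and with it (vertical axis, 4SU+UVA against 4SU) for the 9 tested genes, with bars for the standard error and a dashed line where both are equal. EGR1 lies at 0.39 and 6.13, while IER5 at 1.06 and 1.09 and CCN2 at 0.87 and 0.89 lie on the line.

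The genes most like EGR1 over the 12 libraries were looked for among 8123 other genes with a mean of at least 5 RPKM, by the Pearson correlation of log2(RPKM + 0.5). The nearest was ENSG00000177606 (r = 0.996), which was also the nearest to IER2 (r = 0.991), and the next nearest to EGR1 was ENSG00000102103 (r = 0.989). These values describe 12 libraries whose spread is mostly that between 4SU+UVA and the rest, so any gene with that division scores high. The other kinases, cofactors and targets of the pathway are rows without symbols in the table and were not analysed here.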

How the data were processed

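The authors deposited 1 table of RPKM values for 19580 genes in 12 footprint libraries, 1 Ensembl transcript per gene. The aligner STAR 2.7.10a and the build hg38 are named in the submitters' processing notes. Counting tool, strand setting and annotation version: not given in the sources used here. Groups and replicates came from the sample titles. The RPKM steps gave back each library's total, each transcript's length and the reads behind each value (tolerance 1e-06), by a search tested on simulated data.

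The test took the 11510 genes that reached 1 RPKM in 3 or more libraries. A limma 3.58.1 model (R 4.3.3) of 4 group means on log2(RPKM + 0.5) with a variance trend, with 12 libraries and 8 residual degrees of freedom, gave 6 two-sided contrasts, each adjusted by Benjamini-Hochberg over all genes at a threshold of 0.05. It was tested on simulated data. A fold change on this scale understates the change of low genes. The members and lists were chosen with earlier results of these data known. All members are named. The lists of pathway and marker genes could not be applied, because the table holds identifiers without symbols. The 10 symbols come with the identifiers that define the group. Promoter sequences and gene coordinates are RefSeq's, GRCh38.p14.

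Up to 21 other settings were tried for each contrast, changing 1 choice at a time: the pseudocount (0.1 or 1), the filter, the scaling, the variance trend, the samples in the fit, a replicate block, and leaving out each library.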

Additional observations from a re-analysis of the deposited data

Results flagged for a closer look

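The interaction term of the fit across all genes (limma, 12 libraries), the change with UVA in cells with 4SU minus that in cells without, passed the threshold for 3 members. It was 5.74 on the log2 scale for EGR1 (SE 0.26), 2.50 for IER2 (SE 0.20) and 1.13 for CCN1 (SE 0.23). For each of them all 3 libraries with both agents lay above the 9 others. Over the 20 other settings, which leave out each library in turn or change the scale, filter, trend, block or pseudocount, these values ranged over 5.60 to 6.02, 2.39 to 2.68 and 0.97 to 1.28. The members were chosen with results of these data known, so these calls are no test and the values are a description. Within-group outliers were not looked for, since each group holds 3 libraries.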

How the results depend on the processing

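Under the other settings, up to 21 for each comparison, 236 of 250 recomputed counts of called members stayed within 1.5 times the main count, and no called change of a member turned its sign. The 236 overstates stability, because many of these counts could hardly move. Every main count of lower members was 0, and leaving out a library outside a comparison changes only the shared spread. Most of the exceptions fell in the counts higher with 4SU and higher with UVA. The exceptions follow. The count of members higher with 4SU, 1, was 0 under median centring and under quantile normalisation, 2 with the replicate block (which added CCN2), and 0 to 1 when 1 library was left out. The count higher with UVA, 1, was 2 with the replicate block (again CCN2) and 1 to 3 when 1 library was left out, the most without UVA replicate 3. The count lower in 4SU+UVA against UVA, 0, was 0 to 1, with IER5 called without UVA replicate 3. The cause was not tested. The share of all genes called in each of these settings is not given here, so nothing is read from these counts. The deviations of same-numbered libraries from their group means correlated at -0.046 to 0.068, so no pairing by replicate number was seen. These correlations run over all tested genes, low ones included, where counting error is large, so they cannot show that the replicates were unpaired. Without 4SU+UVA replicate 1, the lowest for EGR1, its difference from untreated was 6.31. Depth limits EGR2 and EGR3, which had 1 to 23 reads per library.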

Other observations

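Replicates of the same group differed in a way that varied by gene, as seen after the values were examined. Among the 4SU+UVA libraries, replicate 1 was the lowest for EGR1, EGR2, EGR3, IER2 and NR4A1, at 179 RPKM for EGR1 against 318 in each of the others, whereas CCN1 and SRF were lowest in replicate 2 and IER5 and CCN2 in replicate 3. Among the UVA libraries, replicate 3 was the lowest for EGR3, IER3, IER5 and CCN2, at 12.1 RPKM for IER5 against 19.9 and 19.3. It was not the shallowest, with 4613701 reads against 3358145 and 5425688. Whether the light dose or the time to harvest differed between replicates was not tested.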
